A study of Mus musculus with 14 samples.

Results

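A set of 9 genes that mark the wall of small blood vessels, 8 endothelial and 1 pericyte, was followed in 14 transplanted mouse hearts. The endothelial genes were Cdh5, Pecam1, Tek, Tie1, Kdr, Flt1, Eng and Cav1, and the pericyte gene was Rgs5. They were taken by name: every probe set that the platform annotation gives to one of these 9 genes alone was used, on every array. That gave 13 probe sets for 9 genes, out of 12422 probe sets and 8251 named genes on the MG-U74Av2 array, a short-oligonucleotide array with 1 colour. All 13 passed the filter on dim probe sets. Tie1, Flt1, Cav1 and Rgs5 had 2 probe sets each, and the brighter one stands for the gene.

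Each array held total RNA of 1 transplanted heart. Isografts were C57/BL6 hearts placed into C57/BL6 recipients, with 3 hearts taken at day 7 and 2 at day 70. Rejecting allografts were Balb/c hearts in C57/BL6 recipients with no treatment named, with 3 hearts at day 7. Tolerizing allografts had the same donor and recipient strains and an anti CD80/86 mAb, an antibody against the costimulatory ligands that T cells need for full activation, with 3 hearts at day 7 and 3 at day 70. All 5 groups are transplanted hearts, and no untransplanted heart was analysed here. Every allograft differs from every isograft in donor strain as well as in immune response, and these cannot be told apart. No label says whether hearts of a group came from separate operations, so p-values measure the spread between these samples, which may be in part technical.

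Endothelial cells line vessels and are held together at their junctions by VE-cadherin (Cdh5) and PECAM-1 (Pecam1). They sense vascular growth factors through receptor tyrosine kinases: Tek (TIE2) binds angiopoietins with Tie1 as its partner, while Kdr (VEGFR2) and Flt1 (VEGFR1) bind VEGF. Pericytes sit on the outside of capillaries and express Rgs5, a regulator of G-protein signalling. In a rejecting heart the donor endothelium is the first surface that recipient leukocytes meet.

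The promoter windows of the 5 genes that fell in rejecting hearts are shown first, because these genes moved in the same direction and their start sites can be set side by side. Each window runs from 250 bases before to 50 bases after a start site listed by RefSeq on build GRCm38.p6, read 5′ to 3′ on the gene's own strand. Capitals mark matches, on either strand, to any of 3 strings. The first, AGGAAG, holds the core that ETS factors bind. The second, AGATAA, holds the core that GATA factors bind, a family of zinc-finger factors of vessels and blood. The last, TATAAA, is the core promoter box. Of 9 genes, 7 had an entry, with 8 windows.
Rgs5: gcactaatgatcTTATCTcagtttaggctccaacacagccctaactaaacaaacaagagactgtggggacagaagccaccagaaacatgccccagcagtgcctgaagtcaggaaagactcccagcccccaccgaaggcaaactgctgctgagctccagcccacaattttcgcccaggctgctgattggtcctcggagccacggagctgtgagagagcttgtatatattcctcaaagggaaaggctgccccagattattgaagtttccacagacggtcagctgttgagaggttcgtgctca
Tek: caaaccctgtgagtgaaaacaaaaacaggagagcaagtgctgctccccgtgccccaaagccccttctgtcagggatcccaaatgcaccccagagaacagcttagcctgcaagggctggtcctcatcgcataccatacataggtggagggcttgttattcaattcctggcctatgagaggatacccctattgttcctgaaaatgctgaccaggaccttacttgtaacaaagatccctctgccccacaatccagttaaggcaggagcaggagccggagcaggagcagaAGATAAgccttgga
Tie1: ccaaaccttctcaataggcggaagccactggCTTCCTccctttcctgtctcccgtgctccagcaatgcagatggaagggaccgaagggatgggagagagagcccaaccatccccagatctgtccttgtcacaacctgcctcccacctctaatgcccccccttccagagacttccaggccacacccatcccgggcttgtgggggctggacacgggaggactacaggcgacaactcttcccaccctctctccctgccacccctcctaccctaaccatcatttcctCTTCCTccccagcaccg
Kdr: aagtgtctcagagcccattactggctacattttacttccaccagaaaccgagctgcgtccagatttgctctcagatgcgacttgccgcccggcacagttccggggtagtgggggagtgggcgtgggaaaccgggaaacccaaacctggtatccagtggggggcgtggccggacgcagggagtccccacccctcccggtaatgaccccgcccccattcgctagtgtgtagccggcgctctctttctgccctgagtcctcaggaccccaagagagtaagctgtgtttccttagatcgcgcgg
Flt1: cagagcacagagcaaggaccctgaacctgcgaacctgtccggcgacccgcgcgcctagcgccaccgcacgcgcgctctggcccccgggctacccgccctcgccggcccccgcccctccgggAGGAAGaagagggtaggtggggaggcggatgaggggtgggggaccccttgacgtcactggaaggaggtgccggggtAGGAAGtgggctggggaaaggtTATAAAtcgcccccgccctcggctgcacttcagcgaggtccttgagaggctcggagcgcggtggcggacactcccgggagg

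The Rgs5 window lies at chr1:169655251-169655550 on the plus strand and the Tek window at chr4:94739039-94739338 on the plus strand. Tie1 lies at chr4:118489800-118490099, Kdr at chr5:75978406-75978705 and Flt1 at chr5:147725962-147726261, all on the minus strand. AGATAA occurred once in the windows of Rgs5 and Tek. AGGAAG occurred 2 times each in Tie1 and Flt1, and Flt1 also held 1 TATAAA. Kdr held none of the 3 strings. Over all 8 windows, 4 held AGGAAG, 2 held AGATAA and 2 held TATAAA, the others being in Eng (2 matches to AGGAAG) and in 1 of the 2 windows of Cav1 (1 match to AGGAAG and 1 to TATAAA). Among 32851 RefSeq windows of the same length, 35.4% held AGGAAG, 11.2% AGATAA and 13.6% TATAAA. A match is a string of letters and was not tested as a binding site.

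Values below are the deposited signals of single arrays, a brightness on a linear scale. For tests, log2 was taken after raising signals below 11 to that floor, so a difference from arrays under the floor is understated. Differences are in log2 units with the standard error (SE) from 1 limma fit of all 14 arrays. A gene is called higher or lower where the Benjamini-Hochberg adjusted p over all 10395 tested probe sets was under 0.05. In whole-heart RNA, fewer cells of a type and less RNA per cell cannot be told apart.

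Rejecting hearts were compared with isografts at day 7, the comparison of an untreated mismatched graft with a matched graft of the same age. The vessel genes were lower in rejecting hearts, and the pericyte gene Rgs5 and the angiopoietin receptor genes Tie1 and Tek fell the most, to between 3.74-fold and 4.32-fold below isografts. The VEGF receptor genes Flt1 and Kdr fell 2.21-fold and 1.99-fold. The other 4, Cdh5, Cav1, Eng and Pecam1, had differences below 0 that did not pass the test. In all, 5 of 9 genes were called lower and 0 higher, where 9.18% of all tested probe sets were called lower and 8.54% higher. The median difference of the 9 genes was -0.99, against 0.02 over 7363 genes.

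**Figure D1:**
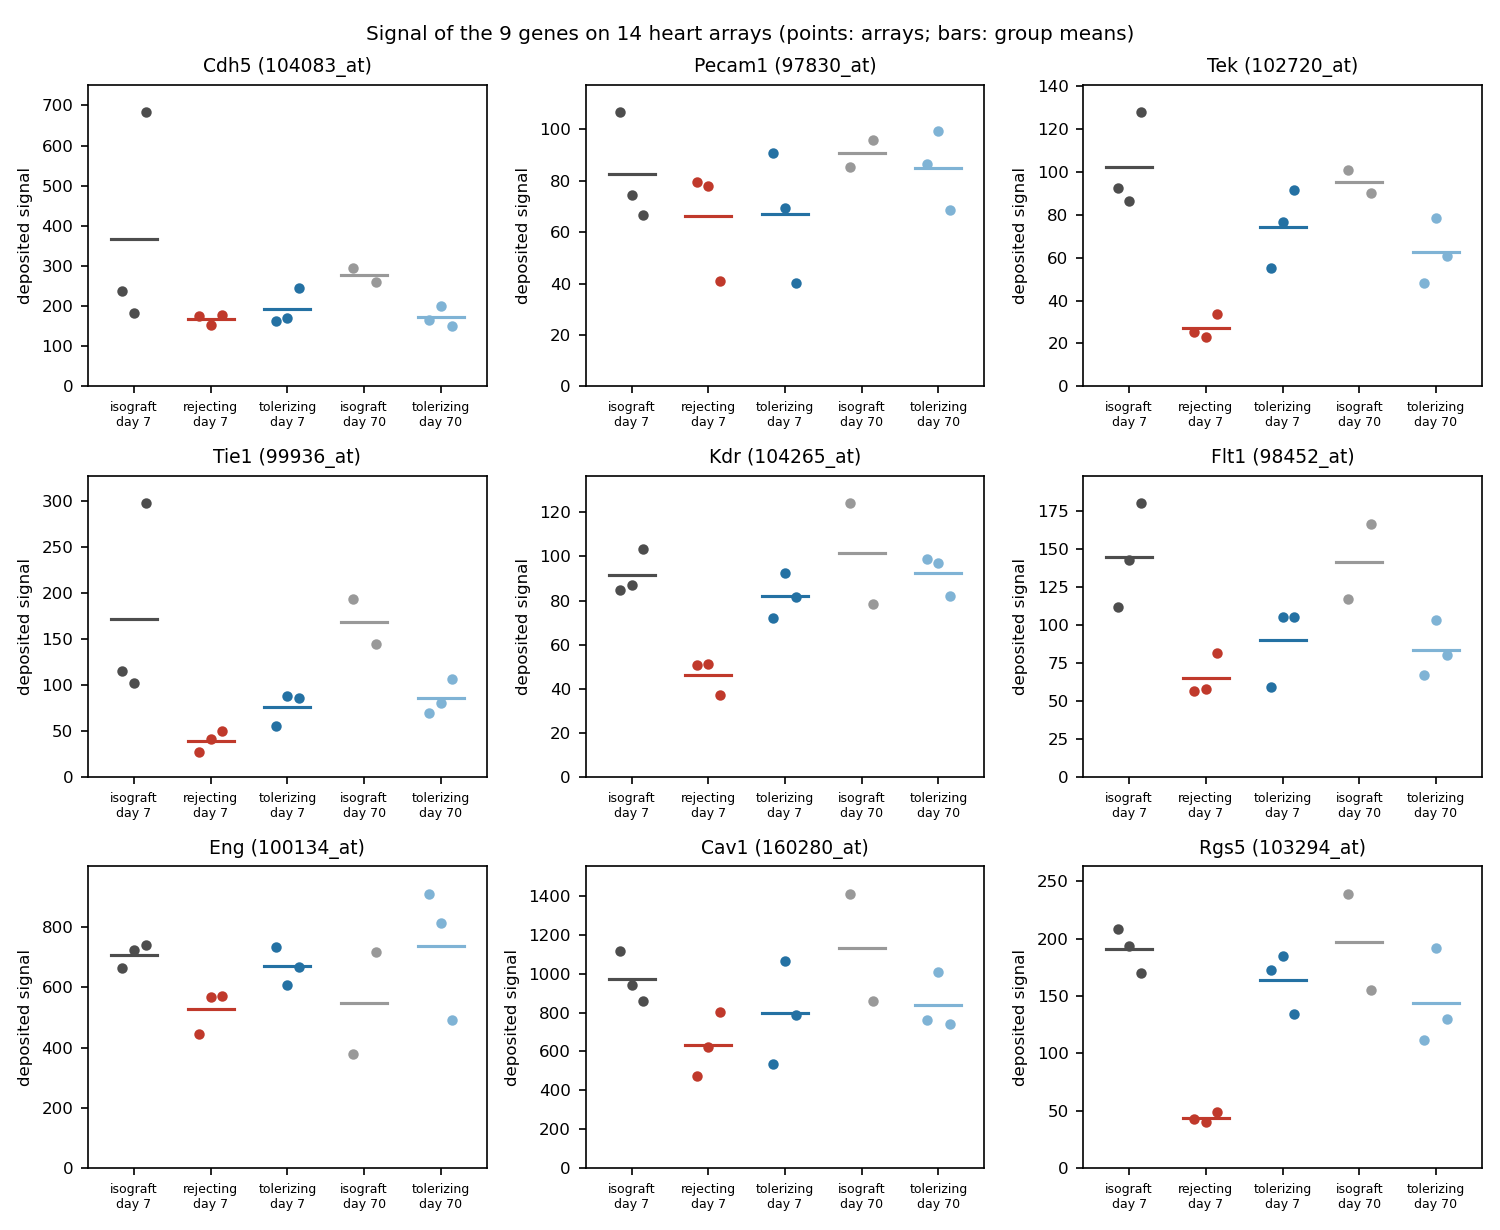
Deposited signal (linear scale, from 0) of the 9 genes on each of the 14 arrays, 1 panel per gene with its probe set, where points are arrays and bars are group means. Rejecting hearts sit between 23.1 and 33.6 for Tek and between 40.6 and 49.2 for Rgs5, below every other array.

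Rgs5 gave 208.8, 193.4 and 170.1 in the day-7 isografts and 42.7, 40.6 and 49.2 in the rejecting hearts. The tolerizing hearts gave 172.7, 184.5 and 134.3 at day 7 and 111.3, 192 and 129.6 at day 70, and the day-70 isografts 238.9 and 155.1. The 3 rejecting arrays are the lowest of the 14, while the other 4 groups overlap one another. Rgs5 fell by 2.11 (SE 0.24) in rejecting hearts against isografts, a 4.32-fold difference with a limma adjusted p of 0.000115. Its dimmer probe set, 96180_at, gave 149.7, 111.3 and 157 in isografts and 2.5, 4.8 and 20.7 in rejecting hearts, where 2 of 3 arrays lie under the floor. By that probe set the difference was -3.34 (SE 0.42, limma adjusted p 0.0002612).

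Tek, the receptor for angiopoietins, gave 92.6, 86.5 and 127.9 in day-7 isografts and 25.2, 23.1 and 33.6 in rejecting hearts. It gave 55.2, 76.4 and 91.5 in tolerizing hearts at day 7 and 48.2, 78.4 and 60.8 at day 70, and 100.9 and 90 in day-70 isografts. As for Rgs5, the rejecting arrays are the 3 lowest, with a gap to the next array. Tek fell by 1.90 (SE 0.28), a 3.74-fold difference with a limma adjusted p of 0.000679.

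Tie1, the orphan receptor that pairs with TIE2, was read by 2 bright probe sets. By 99936_at it gave 115.1, 102.7 and 297.7 in day-7 isografts, 27.4, 41.6 and 50.4 in rejecting hearts, and 55.2, 88.5 and 86.5 in tolerizing hearts at day 7. At day 70 it gave 193.5 and 144.2 in isografts and 70.3, 81.1 and 106.8 in tolerizing hearts. Isograft No.3 stands well above the other isografts here. Tie1 fell by 1.98 (SE 0.38), a 3.94-fold difference with a limma adjusted p of 0.003176. Without isograft No.3 the difference was -1.49 with an adjusted p of 0.009583.

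The second Tie1 probe set, 161184_f_at, has the array maker's suffix for probes that also match related sequences, so it is given apart. It gave 145.7, 143.9 and 162.2 in day-7 isografts, 68.9, 66.6 and 87.4 in tolerizing hearts and 42.6, 43.4 and 37.1 in rejecting hearts. At day 70 it gave 167.5 and 143.7 in isografts and 47.1, 62.4 and 65.4 in tolerizing hearts. At day 7 the 3 groups form separate steps with no overlap, isografts highest and rejecting hearts lowest. In rejecting hearts it fell by 1.88 (SE 0.21) against isografts, with a limma adjusted p of 0.0001056.

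Kdr, the main signalling receptor for VEGF-A, gave 85, 87 and 103.2 in day-7 isografts and 51, 51.2 and 37.1 in rejecting hearts. It gave 71.9, 92.3 and 81.8 in tolerizing hearts at day 7, 98.6, 96.9 and 82.2 at day 70, and 124.2 and 78.6 in day-70 isografts. The rejecting arrays are again the lowest 3, and the other 4 groups overlap. Kdr fell by 0.99 (SE 0.23), a 1.99-fold difference with a limma adjusted p of 0.009144.

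Flt1, a VEGF receptor with weak kinase activity, gave 112, 143 and 180.4 in day-7 isografts and 56.6, 57.8 and 82 in rejecting hearts by its brighter probe set. Tolerizing hearts gave 59.3, 105.2 and 105.6 at day 7 and 67.5, 103.5 and 80.5 at day 70, and day-70 isografts 117 and 166.4. All 5 isografts exceed all 9 allografts, and the rejecting and tolerizing arrays overlap. Flt1 fell by 1.14 (SE 0.29) in rejecting hearts against isografts, a 2.21-fold difference with a limma adjusted p of 0.01407. The call was lost without isograft No.3 (-0.97, adjusted p 0.06058), rejecting No.1 (-1.05, 0.05142) or rejecting No.2 (-1.06, 0.05383). The dimmer probe set, 98453_at, ranged from 8.3 to 114.3 over all arrays and gave 0.15 (SE 0.85, limma adjusted p 0.9412), with a 95% interval of -1.68 to 1.99 that holds both 0 and the difference by the brighter probe set. Of its isograft values, 11 and 11.4 lie at or just above the floor and the other is 114.3. The mean of both Flt1 probe sets gave -0.49 (limma adjusted p 0.6191), so the call was lost there too.

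The remaining 4 genes did not pass the test against isografts. Cdh5, the junctional cadherin, gave 238.3, 182.3 and 683.9 in day-7 isografts and 176, 153.2 and 177.2 in rejecting hearts, groups that do not overlap but lie close apart from isograft No.3. Its difference was -0.88 (95% interval -1.66 to -0.09) with a limma adjusted p of 0.1232. One isograft sets its size: the difference was -0.31 without isograft No.3 (adjusted p 0.4338) and -1.26 without isograft No.2, where it was called (adjusted p 0.03325).

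Cav1, the coat protein of caveolae, gave 1116.3, 939.1 and 857.1 in day-7 isografts and 474.3, 622.1 and 802.5 in rejecting hearts, which do not overlap. Its difference was -0.64 (95% interval -1.24 to -0.04, limma adjusted p 0.1413). The other Cav1 probe set, 97849_at, had a mean of 34.09 over the arrays against 855.9 for the brighter one, and its difference was 0.19 (SE 0.44, limma adjusted p 0.8295).

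Eng, a TGF-beta family coreceptor, gave 661.8, 721.6 and 739.1 in day-7 isografts and 445.7, 566.7 and 569.3 in rejecting hearts. The groups do not overlap, and the difference was -0.43 (95% interval -0.98 to 0.12, limma adjusted p 0.2932). Pecam1 gave 106.8, 74.5 and 66.5 in isografts and 79.5, 77.9 and 40.9 in rejecting hearts. These groups overlap, and the difference was -0.35 (95% interval -1.08 to 0.37, limma adjusted p 0.5487). Groups that do not overlap, with rejecting hearts lower, were seen for 8 of 9 genes, where 15.4% of all tested probe sets had them.

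**Figure D2:**
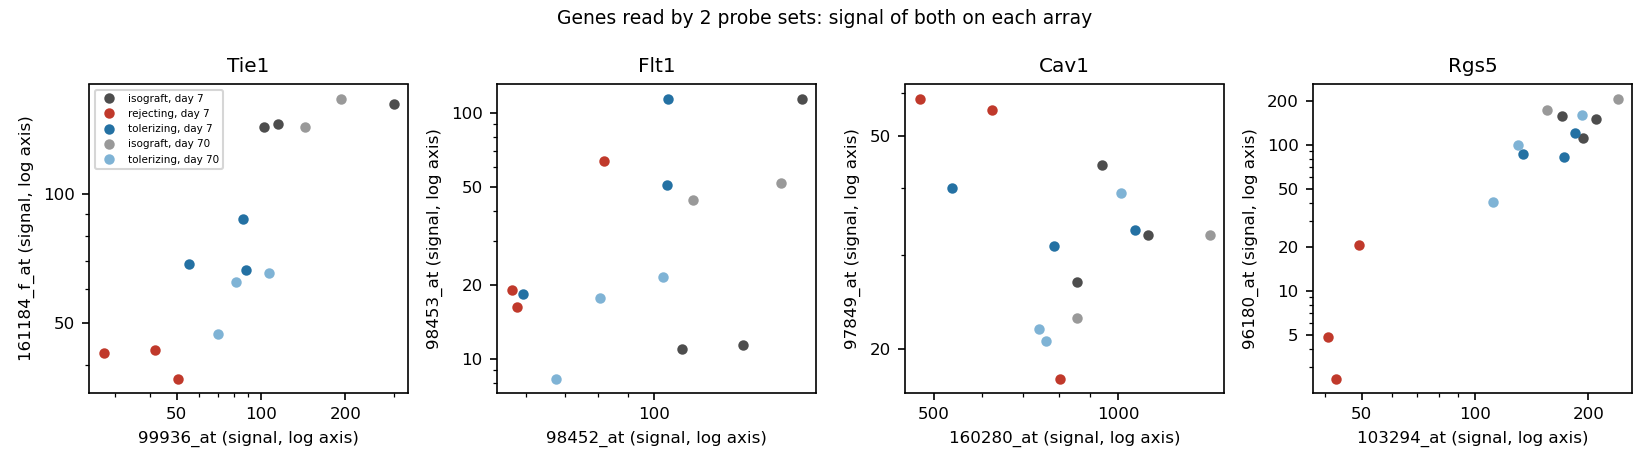
Deposited signal of the brighter probe set (horizontal, log axis) against the other probe set (vertical, log axis) for Tie1, Flt1, Cav1 and Rgs5, 1 point per array coloured by group. The pairs of Tie1 and Rgs5 rise together over the 14 arrays, with Pearson r of 0.86 and 0.96 on log2 signal, while Flt1 has 0.47 and Cav1 -0.30.

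The arrays were deposited in 2 runs of consecutive entries, 5 arrays with 1 of each group and 9 with the rest, and no label says whether a run is a batch of the experiment. The difference of rejecting hearts from isografts was, first in the run of 5 and then in the run of 9, -1.79 and -2.27 for Rgs5, -1.93 and -1.89 for Tek, -2.56 and -1.69 for Tie1, -1.48 and -0.75 for Kdr, and -1.14 and -1.15 for Flt1. All 5 kept their direction in both runs. In the run of 9 by itself, with 2 arrays for most groups, the limma adjusted p was 0.0502 for Kdr and 0.06598 for Flt1, and 3 of the 5 remained called. Cdh5 gave -1.95 and -0.34, and Cav1 gave -0.09 and -0.91.

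Tolerizing hearts at day 7 were then compared with isografts, which asks what is left of the difference when costimulation is blocked. This comparison shares the isografts with the one above, so the values are given side by side and not as separate evidence. No gene was called by its brighter probe set (0 of 9), where 0.75% of all tested probe sets were called lower and 0.943% higher. With an unadjusted p under 0.05 there were 2, Tie1 and Flt1, against 13% of all tested probe sets. The differences were -0.23 for Rgs5 (95% interval -0.73 to 0.28), -0.47 for Tek (-1.07 to 0.13), -1.02 for Tie1 (-1.84 to -0.20), -0.16 for Kdr (-0.66 to 0.33) and -0.71 for Flt1 (-1.33 to -0.09).

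Tie1 and Flt1 were also the 2 genes whose tolerizing arrays all lay below the isografts, where 11.6% of tested probe sets did so. The limma adjusted p was 0.2538 for Tie1 and 0.3034 for Flt1. For Flt1 this holds for the brighter probe set: 98453_at gave 18.4, 50.9 and 113.8 in tolerizing hearts against 11, 11.4 and 114.3 in isografts, which overlap, with a difference of 0.96 (95% interval -0.87 to 2.80). With the mean of both probe sets Flt1 gave 0.13. By probe set 161184_f_at, Tie1 fell by 1.03 (SE 0.21, limma adjusted p 0.02239), nearly the size given by 99936_at with a smaller error. That call was lost without any 1 of the 3 isografts (adjusted p 0.07334 to 0.08009) and without tolerizing No.1 (0.1042) or No.2 (0.07923). It was also lost in the run of 9 arrays described above (-1.10, adjusted p 0.1093), with no other group in the fit (-1.03, 0.06128), and with a control ratio of RNA quality in the fit (-1.03, 0.3526), a ratio that separates these groups, as given at the end. Cdh5 gave 162.1, 169.5 and 244.6 in tolerizing hearts and Pecam1 90.9, 69.6 and 40.4. Eng gave 734.3, 605.7 and 668.1 and Cav1 536, 1066 and 786.4. All 4 overlap the isografts, with differences of -0.71, -0.35, -0.08 and -0.33. The dimmer probe sets gave -0.54 for Rgs5 (95% interval -1.44 to 0.36) and 0.04 for Cav1 (-0.90 to 0.97).

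Rejecting and tolerizing hearts of day 7 share donor and recipient strain and differ in the antibody. Rgs5 and Tek were lower in rejecting hearts, by 3.69-fold and 2.70-fold. These were 2 of 9 genes called, both lower, where 0.885% of all tested probe sets were called lower and 0.529% higher. Rgs5 fell by 1.88 (SE 0.24, limma adjusted p 0.001558), and by 2.80 (SE 0.42, adjusted p 0.005531) by its dimmer probe set. The call by the dimmer probe set was lost with a floor at the 50th percentile, in the run of 9 arrays and with no other group in the fit. Tek fell by 1.43 (SE 0.28, limma adjusted p 0.02238). The Tek call was lost without tolerizing No.2 (adjusted p 0.1158) or No.3 (0.1058), without rejecting No.1 (0.08177) or No.2 (0.09493), and when no other group entered the fit (0.1878).

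The arrays of Tek, Tie1, Kdr, Eng and Rgs5 did not overlap between these groups, 5 of 9 genes with rejecting hearts lower, where 7.76% of tested probe sets had this. For Kdr the difference was -0.83 (95% interval -1.33 to -0.33, limma adjusted p 0.09742). For Tie1 it was -0.96 (-1.78 to -0.14, limma adjusted p 0.2436) by 99936_at and -0.85 (-1.29 to -0.41, adjusted p 0.06309) by 161184_f_at. The other differences were -0.43 for Flt1, -0.35 for Eng, -0.31 for Cav1, -0.16 for Cdh5 and -0.00 for Pecam1, and the dimmer probe sets gave -0.81 for Flt1 and 0.16 for Cav1. The junction genes Cdh5 and Pecam1 were thus within 0.2 log2 units between rejecting and tolerizing hearts, with 95% intervals of -0.95 to 0.62 and -0.73 to 0.72 that also hold changes of over 1.5-fold.

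**Figure D3:**
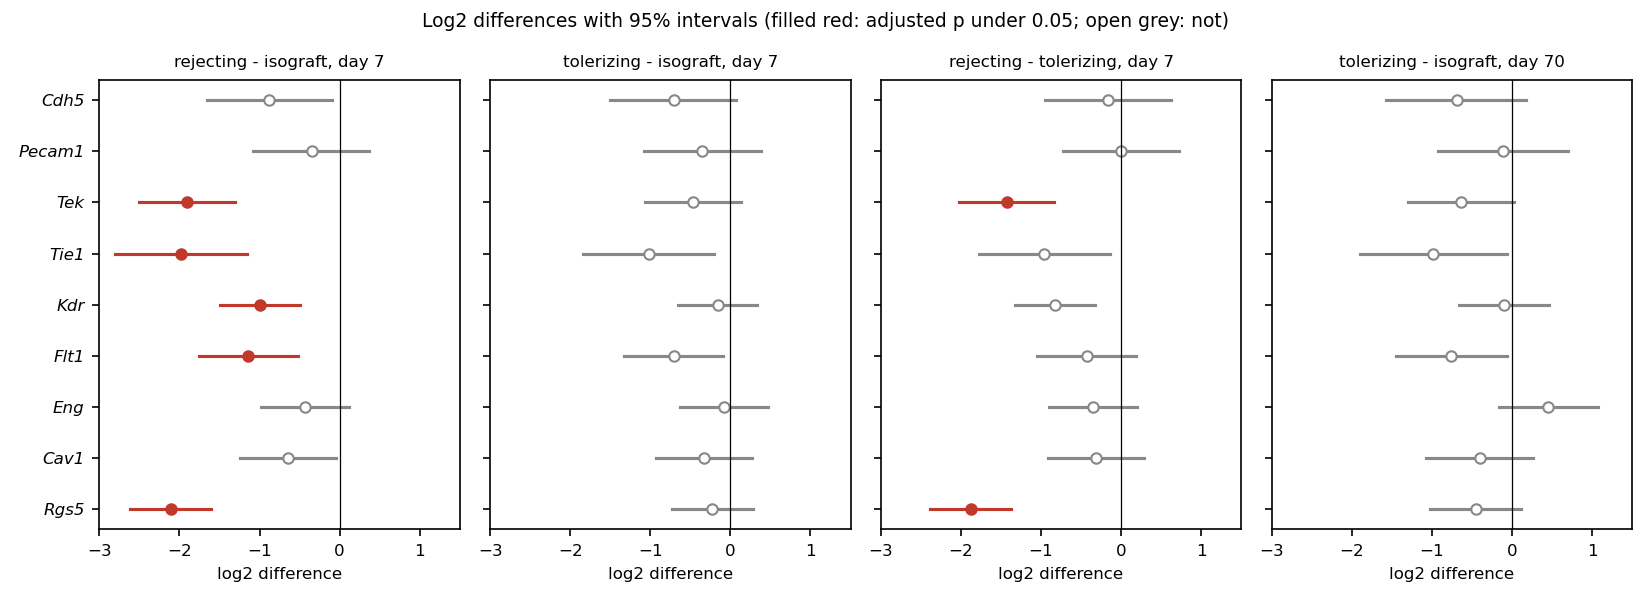
Log2 difference (horizontal) of each gene's brighter probe set in 4 comparisons, with the 95% interval from the limma fit, where filled red points have an adjusted p under 0.05 and open grey points do not. Red points stand for 5 genes in rejecting against isograft hearts, for Tek and Rgs5 in rejecting against tolerizing hearts, and for none in the other 2 panels.

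At day 70, tolerizing hearts were compared with the 2 isografts of that day. No gene was called by its brighter probe set (0 of 9), where 0.856% of all tested probe sets were called lower and 2.35% higher. With an unadjusted p under 0.05 there were again 2, Tie1 and Flt1, against 15.4% of all tested probe sets, so the count is near that share. The difference was -0.98 for Tie1 (95% interval -1.89 to -0.06, limma adjusted p 0.286) and -0.76 for Flt1 (-1.45 to -0.06, adjusted p 0.2723). Tek gave -0.64 (-1.30 to 0.03), Cdh5 -0.69 (-1.57 to 0.18) and Rgs5 -0.45 (-1.02 to 0.11).

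The dimmer probe set of Rgs5 gave 207.3 and 173.4 in day-70 isografts and 40.8, 159.4 and 99.7 in tolerizing hearts. These groups do not overlap, and the difference was -1.13 (95% interval -2.13 to -0.13, limma adjusted p 0.2545), larger than by the brighter probe set, whose groups overlap. The dimmer probe sets of Flt1 and Cav1 gave -1.57 (-3.63 to 0.48) and -0.07 (-1.12 to 0.98).

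By 161184_f_at, Tie1 fell by 1.43 (SE 0.23), a 2.69-fold difference with a limma adjusted p of 0.003561. Without isograft No.1 of day 70 it was -1.32 (adjusted p 0.07169), and with no other group in the fit the adjusted p was 0.1114. Eng was the 1 gene with a difference above 0, 0.45 (95% interval -0.16 to 1.07), from 378.4 and 717 in isografts and 908.5, 812.6 and 492 in tolerizing hearts, which overlap. The remaining genes gave -0.10 (Kdr), -0.11 (Pecam1) and -0.40 (Cav1). Cdh5, at 295.5 and 260.1 in isografts and 165.6, 200.8 and 151.1 in tolerizing hearts, was 1 of 4 genes whose groups did not overlap, with Tek, Tie1 and Flt1, where 22% of tested probe sets lay lower without overlap.

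Between day 7 and day 70 no gene was called in tolerizing hearts, in isografts, or in the change of the tolerizing difference over time (0 of 9 each). Over all tested probe sets limma called 0.0385% in the first (4 probe sets) and 0% in the other two, and 645, 559 and 409 had an unadjusted p under 0.05, none of them a brighter probe set of the 9 genes. In tolerizing hearts, day 70 minus day 7 was -0.21 for Rgs5, -0.25 for Tek, 0.18 for Tie1, 0.18 for Kdr, -0.08 for Flt1, -0.14 for Cdh5, 0.40 for Pecam1, 0.10 for Eng and 0.12 for Cav1. In isografts it was 0.02 for Rgs5, -0.08 for Tek, 0.14 for Tie1, 0.11 for Kdr, -0.03 for Flt1, -0.16 for Cdh5, 0.16 for Pecam1, -0.44 for Eng and 0.19 for Cav1. The values farthest from 0 have wide intervals, Pecam1 in tolerizing hearts (95% interval -0.32 to 1.13) and Eng in isografts (-1.05 to 0.17). Split by run, the isograft change had opposite signs in the run of 5 and the run of 9 for several genes. It was -1.05 and 0.83 for Tie1, -1.39 and 0.50 for Cdh5, and -0.39 and 0.53 for Kdr. Flt1 and Eng were below 0 in both runs, and each run holds a single day-70 isograft.

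The change of the tolerizing difference from day 7 to day 70 lay between -0.23 (Rgs5) and 0.54 (Eng, 95% interval -0.29 to 1.36). By the second probe sets, tolerizing hearts over time gave -0.13 for Rgs5, -0.35 for Tie1, -1.55 for Flt1 (-3.39 to 0.28) and -0.41 for Cav1, and isografts 0.46, 0.04, 0.98 and -0.31. None of these was called.

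Across the 14 arrays the 9 genes did not move as a block. Over their 36 pairs, Pearson r of log2 signal ran from -0.04 to 0.91 with a median of 0.49, as a description of arrays that share groups and scaling. Tek stood closest to the others, with 0.91 to Rgs5, 0.90 to Tie1, 0.85 to Flt1 and 0.81 to Kdr. Pecam1 had at most 0.40, with Kdr, and Eng at most 0.27, with Rgs5. Of genes outside the set, Rgs5 was matched most closely by Gucy1b1, the beta subunit of soluble guanylate cyclase, with r of 0.978 over 14 arrays, followed by Il6st (0.953), Gm4788 (0.951), Mxd4 (0.948) and Gja1 (0.947). The mean of the 8 endothelial genes was matched most closely by Rpl22 (0.956), Cryz (0.950), Ephx2 (0.939), Use1 (0.931) and Sbf2 (0.930).

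Other genes linked to vessels were counted in 7 lists. All 7 lists had medians below 0 in rejecting hearts against isografts at day 7, against 0.02 over all genes. Tolerizing hearts against isografts also had medians below 0 for all 7 lists. These ran from -0.88 to -0.07 at day 7 and from -0.92 to -0.08 at day 70, against -0.02 and -0.09 over all genes. Not all of the listed genes are particular to vessel cells, and the cells that gave their signal in whole-heart RNA were not tested. Counts for rejecting hearts against isografts stand beside a background of 9.18% of all tested probe sets called lower and 8.54% called higher. Among pericyte and smooth muscle genes, 6 of 13 tested were called lower and 0 higher, with a median of -0.53. Those with the smallest p were Vtn, a matrix glycoprotein made by pericytes, Notch3, the mural cell Notch receptor, and Kcnj8 and Abcc9, the 2 parts of a potassium channel. Notch3 gave 145.6, 149.6 and 177.6 in isografts and 29.9, 30 and 52.1 in rejecting hearts, a fall of 2.12 (SE 0.24, limma adjusted p 0.000115). Kcnj8 gave 115.9, 142.8 and 122.8 and then 5, 9.3 and 25.5, with 2 of 3 rejecting arrays under the floor, and fell by 3.12 (SE 0.36, adjusted p 0.0001348). Abcc9 fell by 2.41 (SE 0.39, adjusted p 0.001228). Vtn gave 53.6, 61.7 and 69.3 in isografts and lay under the floor on all 3 rejecting arrays, at least 5.56-fold lower (adjusted p 8.581e-05). The contractile genes Acta2 and Tagln gave 0.54 (SE 0.56) and 0.77 (SE 0.66) and were not called. Contractile genes did not all move alike. Myh11 was lower, with 34.4, 49.4 and 38 in isografts and 25.3, 6.8 and 10.2 in rejecting hearts, 2 of 3 under the floor. Cnn1 and Smtn overlapped between these groups.

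Among endothelial surface, junction and secreted genes, 8 of 16 tested were called lower and 1 higher, with a median of -0.94. The water channel gene Aqp1 fell 15.8-fold (limma adjusted p 0.0005708), from 197.6, 551.7 and 320.9 to 28.3, 7.3 and 28.6. With 1 of 3 rejecting arrays under the floor, this fold is set in part by the floor. Ptprb, the phosphatase that acts on TIE2, gave 74, 57.4 and 75.4 in isografts and 5.2, 1.9 and 14.1 in rejecting hearts. With 2 of 3 rejecting arrays under the floor, its fall of 2.52 (SE 0.37, adjusted p 0.0007816) is set in part by the floor. Ace, the angiotensin-converting enzyme, fell by 2.23 (SE 0.36, adjusted p 0.001187), with 1 of 3 rejecting arrays under the floor. Procr, the endothelial protein C receptor, rose 6.68-fold, from 20.3, 28.6 and 40.6 to 197.4, 252.4 and 141.1 (adjusted p 0.0004767). Procr thus moved opposite to the other called genes of its list.

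Of endothelial transcription factor genes, 5 of 14 tested were called lower and 0 higher, with a median of -0.53. Sox18 and Sox17 fell 3.35-fold and 3.30-fold (limma adjusted p 0.001068 and 0.002168) and Epas1 2.10-fold (0.02392). Mef2c gave 80.4, 48.2 and 70.9 in isografts and 13.7, 8 and 10.9 in rejecting hearts, 2 of 3 under the floor, so that its fall of 2.46 on the log2 scale (adjusted p 0.0009938) is set in part by the floor. The Mef2c call was lost with a floor at the 50th percentile (adjusted p 0.06709) and that of Epas1 without 1 of 3 arrays (up to 0.1102, without isograft No.1, and also without rejecting No.2 or No.3).

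Among the ligands and coreceptors of the VEGF and angiopoietin receptors, 2 of 9 (22.2%) were called lower and 1 (11.1%) higher, with a median of -0.47. The share called higher is near the background of 8.54%. Vegfb, a ligand of Flt1, gave 354.8, 459.6 and 459.9 in isografts and 96.8, 97.7 and 192.1 in rejecting hearts, a fall of 3.46-fold (limma adjusted p 0.0006727). The coreceptor gene Nrp1 fell 1.97-fold (0.009713). Pgf, another Flt1 ligand, rose 2.48-fold (0.01994), a call lost without isograft No.1 or No.3 or rejecting No.1 or No.2 (adjusted p 0.05331 to 0.09396). The angiopoietin genes Angpt1 and Angpt2 gave -0.66 (SE 0.35) and 0.76 (SE 0.36) and Vegfa gave 0.74 (SE 0.46), none of them called.

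In the endoglin and BMP/TGF-beta receptor list, 2 of 13 (15.4%) were called lower and 1 (7.69%) higher, with a median of -0.37. Both shares are near the background of 9.18% and 8.54%, and the called genes are given as single genes. The BMP target genes Id1 and Id3 fell 3.22-fold and 2.71-fold (limma adjusted p 0.001451 and 0.001068). Id2 rose 2.44-fold (0.01452), a call lost without isograft No.1 (0.07015). In the Notch and ephrin list 2 of 8 were called lower and 0 higher, with a median of -0.80. These were Hey1, a Notch target (4.19-fold, adjusted p 0.00159), and Efna1, an ephrin ligand (4.16-fold, adjusted p 0.002995). For Efna1, 1 of 3 rejecting arrays lies under the floor, and the call was lost in the run of 9 arrays. The median of the Notch and ephrin list was -0.88 at day 7 and -0.92 at day 70 in tolerizing hearts against isografts. In rejecting against tolerizing hearts it was -0.08. Of 4 caveola genes, Cavin2 fell 5.95-fold (adjusted p 0.0001605) and Cavin1 1.80-fold (0.02799), with a median of -1.15 for the list. The Cavin1 call was lost without any 1 isograft or without rejecting No.3 (adjusted p 0.05978 to 0.09357).

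**Figure D4:**
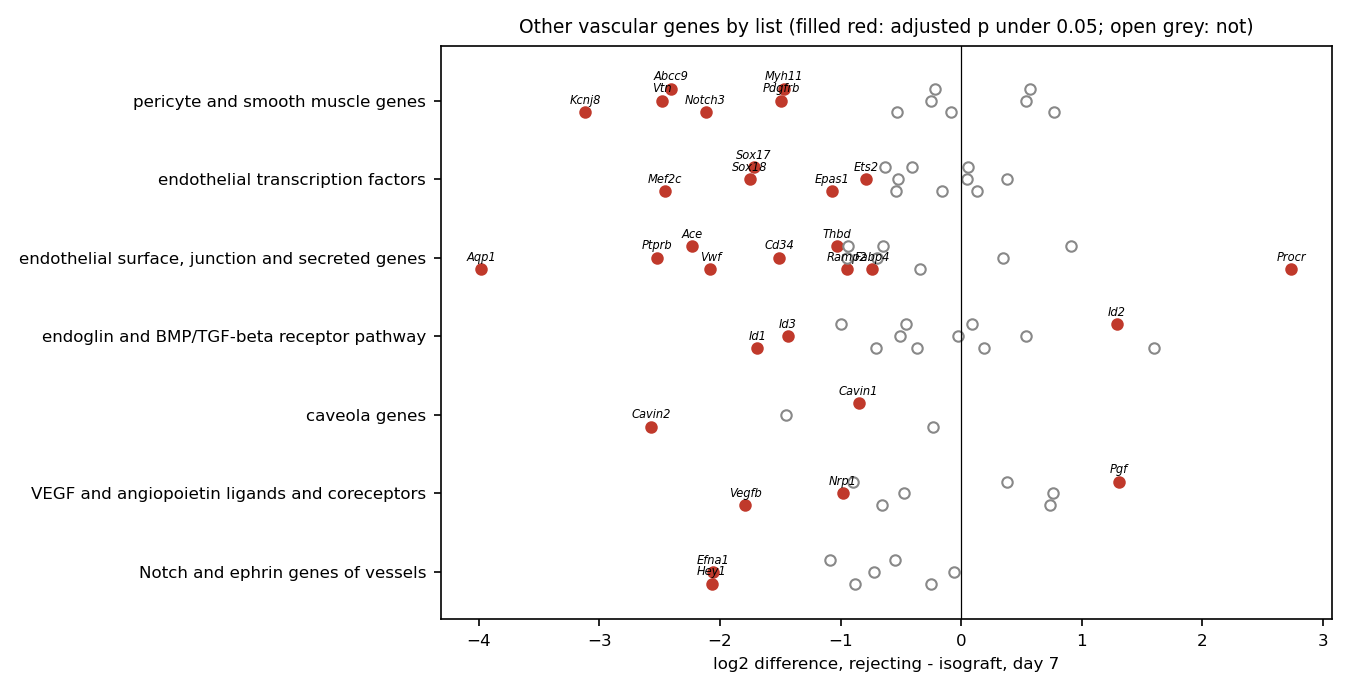
Log2 difference (horizontal) of rejecting against isograft hearts at day 7 for the tested genes of 7 lists of vascular genes, 1 point per gene, where filled red points with names have a limma adjusted p under 0.05 and open grey points do not. Most red points lie below 0, while Procr, Pgf and Id2 lie above it.

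In the other comparisons fewer genes of these lists were called. In rejecting against tolerizing hearts, 2 of 16 endothelial surface, junction and secreted genes were called lower and 1 higher. Of 13 pericyte and smooth muscle genes 2 were called lower, and of 13 endoglin and BMP/TGF-beta list genes 1. The other lists had none. Over all tested probe sets, 0.885% were called lower and 0.529% higher. Rejecting against tolerizing hearts gave Notch3 (3.40-fold lower, limma adjusted p 0.002567), Kcnj8 (3.65-fold lower, 0.02201), Ace (3.60-fold lower, 0.02242), Cd34 (2.23-fold lower, 0.03489), Id3 (2.22-fold lower, 0.02476) and Procr (5.20-fold higher, 0.007108). The calls of Kcnj8, Ace, Cd34 and Id3 were each lost without tolerizing No.2 (adjusted p 0.1302, 0.1239, 0.1827 and 0.09191) and on leaving out at least 2 other arrays, and that of Procr without tolerizing No.2 (0.05422). With no other group in the fit none of the 6 was called, Notch3 having an adjusted p of 0.1455.

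In tolerizing hearts against isografts at day 7 the 1 call was Vtn, lower, with 5.3, 13 and 2 against 53.6, 61.7 and 69.3 (limma adjusted p 0.0005327). This was 1 of 13 pericyte and smooth muscle genes, where 0.75% of all tested probe sets were called lower and 0.943% higher. At day 70 Epas1 (3.18-fold, adjusted p 0.01474), Aqp1 (6.33-fold, 0.03505) and Vtn (2.37-fold, 0.03421) were lower, and Id2 (3.01-fold, 0.03052) and Procr (3.55-fold, 0.03081) were higher. Called lower were 1 of 14 transcription factor, 1 of 16 surface and 1 of 13 pericyte genes. Over all tested probe sets 0.856% were called lower. Called higher were 1 of 16 surface and 1 of 13 endoglin list genes, against 2.35% over all tested probe sets. Each of these 5 day-70 calls was lost without isograft No.1 of day 70 (adjusted p 0.1346, 0.3891, 0.2026, 0.2904 and 0.09986) and without at least 1 other array.

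Markers of other cell types moved with the groups. Their counts in rejecting hearts against isografts stand beside 9.18% of all tested probe sets called lower and 8.54% called higher. The summed signal of 9 leukocyte markers was 2016.6 to 2123.1 in day-7 isografts, 6679.7 to 9528.2 in rejecting hearts and 3677.4 to 6591.8 in tolerizing hearts, and all 9 were called higher in rejecting hearts against isografts. The smallest p-values belonged to Itgb2, the leukocyte integrin chain (10.3-fold, limma adjusted p 5.303e-05), Cd52 (5.69-fold, 0.0008554), Cd53 (6.07-fold, 0.001705) and Fcer1g (3.29 on the log2 scale, 0.001854), for which 2 of 3 isograft arrays lie under the floor. Itgb2 and Cd52 were also called higher in tolerizing hearts against isografts at day 7 (3.30-fold and 3.83-fold), and Itgb2 in rejecting against tolerizing hearts (3.11-fold). The first 2 calls were lost without isograft No.1 or No.2 or tolerizing No.1 or No.3. The last was lost without rejecting No.1 or No.2 or tolerizing No.2 or No.3. All 3 were lost with no other group in the fit. The summed signal of the 9 cardiomyocyte markers on the array was 28094.8 to 39643.9, 4324.0 to 17614.5 and 18238.7 to 27339.6, with 8 of 9 called lower in rejecting hearts. Of these, Mybpc3 (2.98-fold), Atp2a2 (8.31-fold), Tnni3 (10.2-fold) and Actc1 (3.03-fold), genes of contraction and calcium uptake, had the smallest p-values (limma adjusted p 0.002294 to 0.004397).

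Fibroblast markers summed to 10307.0 to 16393.6, 3054.4 to 10846.0 and 11389.6 to 12955.7, with 3 of 7 called lower in rejecting hearts against isografts, Lum (6.83-fold), Dcn (4.80-fold) and Postn (11.7-fold). The same 3 were called lower against tolerizing hearts, by 6.42-fold, 3.35-fold and 12.2-fold, where 0.885% of all tested probe sets were called lower. With no other group in the fit, the calls of Dcn and Postn against tolerizing hearts were lost (limma adjusted p 0.1455 and 0.1256). Lum kept its call there. At day 70 the leukocyte sum was 778.8 to 1594.2 in isografts and 3996.3 to 6774.6 in tolerizing hearts. Of the 9 markers, 7 were called higher, led by Laptm5 (3.89-fold), Itgb2 (4.62-fold), Cd52 (5.04-fold) and Cd53 (6.38-fold). In this comparison 2.35% of all tested probe sets were called higher and 0.856% lower. The calls of these named genes rest on 2 isografts and were lost with no other group in the fit. The cardiomyocyte sum was 33076.7 to 40998.9 and 26159.9 to 35997.5 at day 70, with 0 of 9 called. The part of these cell types in the levels of the vessel genes was not tested.

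The sums of the vessel cell markers largely repeat values given above: 5 of the 7 endothelial markers are Cdh5, Pecam1, Tek, Tie1 and Kdr, and the pericyte markers are Rgs5, Pdgfrb, Kcnj8 and Abcc9. Of the defining endothelial markers, 7 of 8 were on the array and summed to 843.1 to 1637.2 in day-7 isografts, 557.1 to 617.1 in rejecting hearts and 729.6 to 888.1 in tolerizing hearts. None was at the floor on all arrays of a group. The pericyte markers, 4 of 5 on the array, summed to 511.4 to 559.5, 103.7 to 125.2 and 298.8 to 393.3. All 4 were called lower in rejecting hearts against isografts, where 9.18% of all tested probe sets were called lower. Lymphatic endothelial markers, 4 of 5 on the array, summed to 136.2 to 146.4, 78.2 to 151.0 and 106.4 to 148.5. Platelet markers were read by 2 of 5 genes and summed to 31.3 to 41.5, 27.7 to 124.1 and 21.5 to 40.0.

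**Figure D5:**
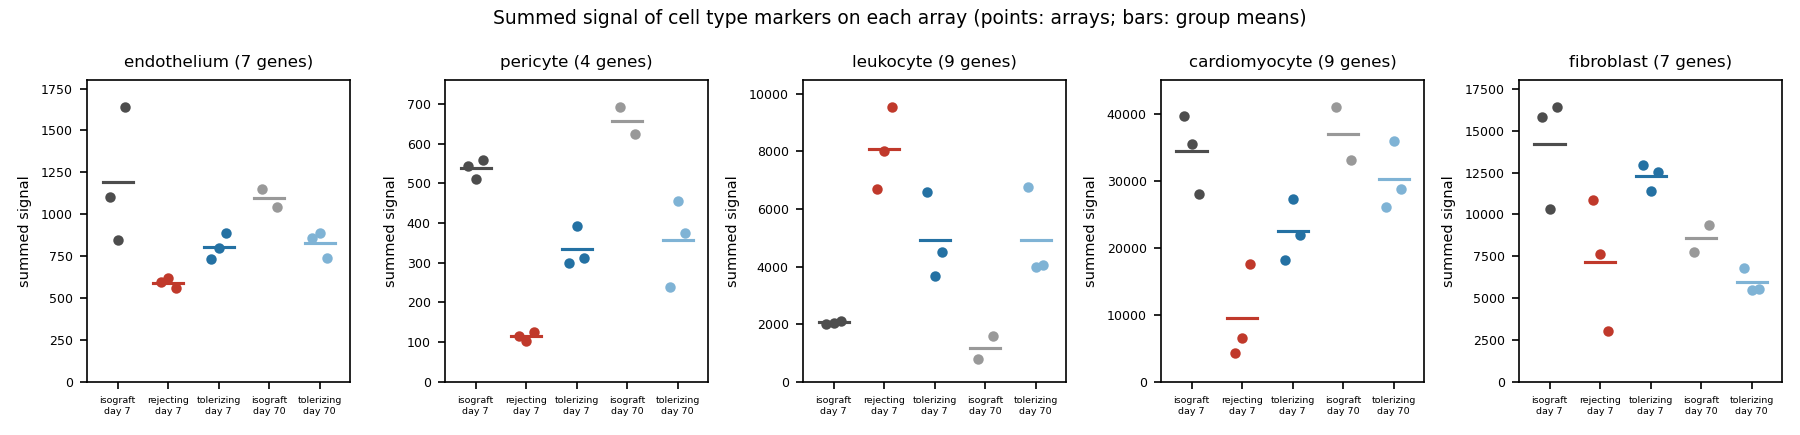
Summed deposited signal (linear scale, from 0) of the markers of 5 cell types on each array, where points are arrays and bars are group means. Pericyte markers lie between 103.7 and 125.2 in rejecting hearts, below every other array, while leukocyte markers lie between 6679.7 and 9528.2 there and reach 6774.6 in 1 tolerizing heart of day 70.

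The arrays had been scaled alike, with means of 100.06 to 100.07 once the extreme values were left out, and the share of probe sets over the floor was 71.9 to 78.7%. The ratio of the 3-prime to the 5-prime beta-actin control, a sign of RNA quality, was 1.52 to 1.98 in day-7 isografts, 1.26 to 1.61 in rejecting hearts and 1.09 to 1.37 in tolerizing hearts. It differed between isograft and tolerizing hearts without overlap. The same ratio of the Gapdh control did overlap, at 0.818 to 0.945 in day-7 isografts and 0.821 to 0.890 in tolerizing hearts. With the beta-actin ratio in the fit, Rgs5 gave -2.15 in rejecting hearts against isografts (limma adjusted p 0.0009013), while the adjusted p rose past 0.05 for Flt1 in that comparison (0.05206) and for Tek against tolerizing hearts (0.07999). Their differences hardly moved, at -1.09 for Flt1 and -1.43 for Tek.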

How the data were processed

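The authors deposited 1 table of linear intensity values, with 12488 probe sets on 14 arrays. What software and scaling made them is not given in these sources. Intensities were used without rescaling, set to a floor of 11 (the 25th percentile) and taken as log2. After leaving out 66 control probe sets, the 10395 above the floor on at least 3 arrays were tested. Genes came from the platform annotation, 10833 probe sets having 1 gene, 396 several and 1193 none, with symbols updated through RefSeq. A single limma model (version 3.58.1, under R 4.3.3) covered all 5 groups, with contrasts and eBayes with an intensity trend on 9 residual degrees of freedom. Tests were two-sided, and the code was tested on simulated data. The number of arrays limits the precision.

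The members and lists were chosen with earlier results of these data known. By rule all 9 genes are named in each comparison of 2 groups, with the second probe sets of 4 genes, and for the change of a difference over time the range is given. Of each list and marker list, up to 4 called genes with the smallest p in a comparison are named, plus the 5 genes most like Rgs5 and the 5 most like the endothelial mean. Acta2, Tagln, Myh11, Cnn1, Smtn, Angpt1, Angpt2 and Vegfa are given beyond those rules, after their values were seen. Alternatives covered scaling, floor, filter, variance trend, replicate block, run, groups alone, the beta-actin ratio, each array left out, and the mean of a gene's probe sets.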

Additional observations from a re-analysis of the deposited data

How the results depend on the processing

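Rgs5, Tek and Tie1 kept their call in rejecting hearts against isografts under all 28 alternatives, Kdr under 27 and Flt1 under 22, and Rgs5 kept it against tolerizing hearts under all 28 (highest limma adjusted p 0.04753). Tek kept its call against tolerizing hearts under 20. Genes called in rejecting hearts against isografts were 5, and 3 in the second run alone. They were 4 to 6 on leaving out 1 array, Cdh5 being called without isograft No.2. Against tolerizing hearts they were 2, and 1 with a floor at the 50th percentile, in the second run alone, with no other group in the fit, or after adding the beta-actin ratio to the fit. On leaving out 1 array they were 1 to 2. In tolerizing hearts against isografts at day 70 they were 0, and 1 (Tie1) with the mean of a gene's probe sets. Of 1764 differences of the 9 genes over all alternatives, 15 lost a call, 2 gained one and none called reversed. In 76 the sign differed from that of the chosen setting, all uncalled in both and none larger than 0.72.

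The replicate numbers were not taken as pairs in the main fit, though arrays with the same number were somewhat more alike. Of 26 pairs of arrays with the same number in different groups, 11 had a correlation of their deviations over 0.1 (lowest -0.1756, median 0.05444, highest 0.3405). Of 52 pairs with different numbers, 7 did (median -0.0574). Of 14 arrays, 9 correlated best with their own number. With the number as a replicate block, the counts of the 9 genes stayed at 5, 0, 2 and 0 in the 4 main comparisons, and Rgs5 gave -2.11 (limma adjusted p 0.0003183) against isografts. Over all probe sets the block called 12 in tolerizing hearts over time, against 4.

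Counts over all probe sets moved more. Rejecting against isograft hearts gave 1842, and 1153 with the groups alone. Tolerizing against isograft hearts gave 176 at day 7, between 8 (beta-actin ratio) and 218 otherwise and 76 to 254 on leaving out 1 array. Rejecting against tolerizing hearts gave 147, between 20 (groups alone) and 235 (floor at the 50th percentile), and 36 to 771 on leaving out 1 array, the highest without rejecting No.3. Tolerizing against isograft hearts at day 70 gave 333, between 37 (groups alone) and 405, and 82 to 452 on leaving out 1 array. Over time, tolerizing hearts gave 0 to 34, isografts 0 to 32 and the change of the difference 0 to 3. The causes were not tested.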
